A study of Rattus norvegicus with 19 samples.

Results

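Gene expression in the T11 dorsal root ganglion was compared between 14 and 7 days after the neighbouring skin nerves had been cut, to show what sets the later stage of collateral sprouting apart from the earlier one. The 14 arrays were chosen by their titles, 7 labelled day 14 and 7 labelled day 7, out of 19 in all. All rats were adult female Sprague-Dawley rats, an outbred strain, and each gave 1 array from its own single ganglion. In the 14 operated rats the dorsal and lateral cutaneous nerves of T9, T10, T12 and T13 had been transected on one side while T11 was left intact. The submitters presumed day 7 to be an initiation phase and day 14 a maintenance phase. The other 5 arrays, from naive rats without surgery, served only to show on which side of a difference the unoperated level lay. With no sham-operated group, the operation itself and the loss of the neighbouring nerves cannot be told apart, and each rat was sampled at 1 time only.

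A dorsal root ganglion holds the cell bodies of sensory neurons, each wrapped in satellite glia, together with their axons, the Schwann cells that myelinate or ensheathe them, resident macrophages, fibroblasts and vessels. When skin loses its nerve supply, intact axons of the next segment can extend collateral branches into it. This growth depends on nerve growth factor from the skin and involves no injury to the sprouting axon itself. In whole-ganglion RNA, fewer cells of a type and less RNA per cell cannot be told apart.

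No transcript passed the threshold between the days. With limma, 0 of 31042 probe sets had an adjusted p under 0.05, and the smallest adjusted p was 0.133. At an unadjusted limma p under 0.05, 2206 probe sets (7.11%) were higher at day 14 and 1310 (4.22%) were lower. That surplus of higher ones lay in the dimmer probe sets: among those above the median level 619 were higher and 907 lower, and among those below it 1587 were higher and 403 lower. All 7 day 14 arrays lay above all 7 day 7 arrays for 33 probe sets (0.106%), and below them for 25 (0.0805%). Means were higher at day 14 for 55.0% of probe sets. Counted with 1 probe set per gene, 868 of 14217 genes (6.11%) were higher and 630 (4.43%) lower at the same p, the median difference was 0.00, and the arrays did not overlap for 0.0703% on the higher and 0.134% on the lower side. Differences of more than 2-fold were met by 17 probe sets. Control transcripts probed at both ends showed the same 3' to 5' balance, a measure of RNA integrity and amplification: the 3' minus 5' difference had a mean of 2.66 log2 units on both days, with an SD of 0.06 over the 7 day 7 arrays and 0.07 over the 7 day 14 arrays. Every value below is on the deposited log2 scale, every difference is day 14 minus day 7 with its standard error from limma, and "higher" or "lower" is a description of means that did not pass the adjusted threshold.

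The smallest p values among lower transcripts belonged to a neuronal receptor, an ion channel and an adhesion molecule. Sstr1, a somatostatin receptor that couples to inhibitory G proteins, ranged from 6.70 to 7.02 at day 7 (median 6.89) and from 6.35 to 6.59 at day 14 (median 6.45). Naive rats averaged 6.87 ± 0.10 (SD, n = 5). The operated groups did not overlap, day 14 stood below both other groups, and the difference was -0.38 ± 0.06 (limma adjusted p = 0.133). Its other probe sets stood at 0.09 and 0.10, in the opposite direction. Kcnj5, a subunit of G protein-gated inward rectifier potassium channels, ranged from 8.05 to 8.59 at day 7 and from 7.70 to 7.98 at day 14, again without overlap. Its difference was -0.46 ± 0.09 (limma adjusted p = 0.155), and a further probe set stood at 0.20. The naive mean of 8.09 lay between the days.

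Nrcam, an L1-family adhesion molecule of axons and nodes of Ranvier, showed another arrangement. Its probe set ranged from 8.32 to 9.07 at day 7 and from 8.10 to 8.43 at day 14, and the naive mean of 8.19 lay at the day 14 level. Day 7 thus stood apart, 6 of 7 day 14 arrays lay below every day 7 array, and the difference was -0.59 ± 0.11 (limma adjusted p = 0.155). The brightest Nrcam probe set differed by -0.09 ± 0.06 and a further one by 0.39, so the gene's probe sets disagree. Without day 7 replicate 1, Sstr1 (-0.40) and Nrcam (-0.67) each reached a limma adjusted p of 0.039. Of the other lower genes with the smallest p, Hoxa10, a homeobox patterning factor, stood at -0.43 without overlap, Vwa7 at -0.41 and Slc4a1ap at -0.23, both also without overlap. C1qtnf4, a secreted C1q-domain protein, stood at -0.35 with further probe sets at 0.01 and 0.00, and Wdr75, needed for ribosomal RNA synthesis, at -0.31. The cilium genes Ift70a1 (-0.35) and Cfap418 (-0.28), the mitochondrial folate carrier Slc25a32 (-0.26, without overlap) and H2al2l (-0.30) completed the 12.

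The higher transcripts of smallest p included 2 genes of the matrix lists, Col1a1 and Spon2. Col1a1, the alpha 1 chain of type I collagen, ranged from 10.90 to 11.45 at day 7 (median 11.14) and from 11.44 to 12.06 at day 14 (median 11.77). Of the 7 day 14 arrays 6 lay above every day 7 array, and the difference was 0.63 ± 0.12 (limma adjusted p = 0.155). The naive mean of 11.62 ± 0.35 (SD, n = 5) was near the day 14 mean, and a further probe set stood at 0.31. Spon2, a matrix protein of the F-spondin family that also binds bacterial products, ranged from 7.13 to 7.50 and from 7.41 to 8.21, a difference of 0.59 ± 0.12. Zc3h14, a poly(A)-binding protein, was the highest-ranked gene without overlap, with 10.06 to 10.23 at day 7 and 10.29 to 10.45 at day 14. Its difference was 0.24 ± 0.04 (limma adjusted p = 0.155) with the naive mean of 10.15 at the day 7 level, but its other probe sets stood at -0.01 and -0.09.

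Tead1, a DNA-binding partner of the Hippo effectors, differed by 0.36 ± 0.08 (further probe set 0.15), and Leprot, which shares its gene with the leptin receptor, by 0.33 without overlap (further probe set -0.03). Kif5a, a kinesin of axonal transport, stood at 0.46, with further probe sets at 0.14 and -0.21. Ndrg1, a stress-responsive gene prominent in Schwann cells, stood at 0.33 without overlap (further probe set 0.11). The remaining genes were Afg3l1 (0.43), C11h3orf70 (0.29, further probe set -0.05), Slc22a12 (0.27), the polysialic acid synthase St8sia4 (0.26) and C1qtnf12 (0.25). Further C1qtnf12 probe sets stood at 0.10, 0.04 and 0.03. The St8sia4 probe set was dim and not the brightest of its gene. Among the larger differences without overlap were also Cpt1a, the entry enzyme of mitochondrial fatty acid oxidation, at 0.43 ± 0.10 with a further probe set at 0.27, Nherf4 at 0.29 and Caskin2 at 0.23. On the lower side they included Qpct, which forms pyroglutamate at peptide ends, at -0.42, and the Wnt effector Tcf7l2 at -0.37, whose further probe sets ran from -0.16 to 0.07.

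**Figure D1:**
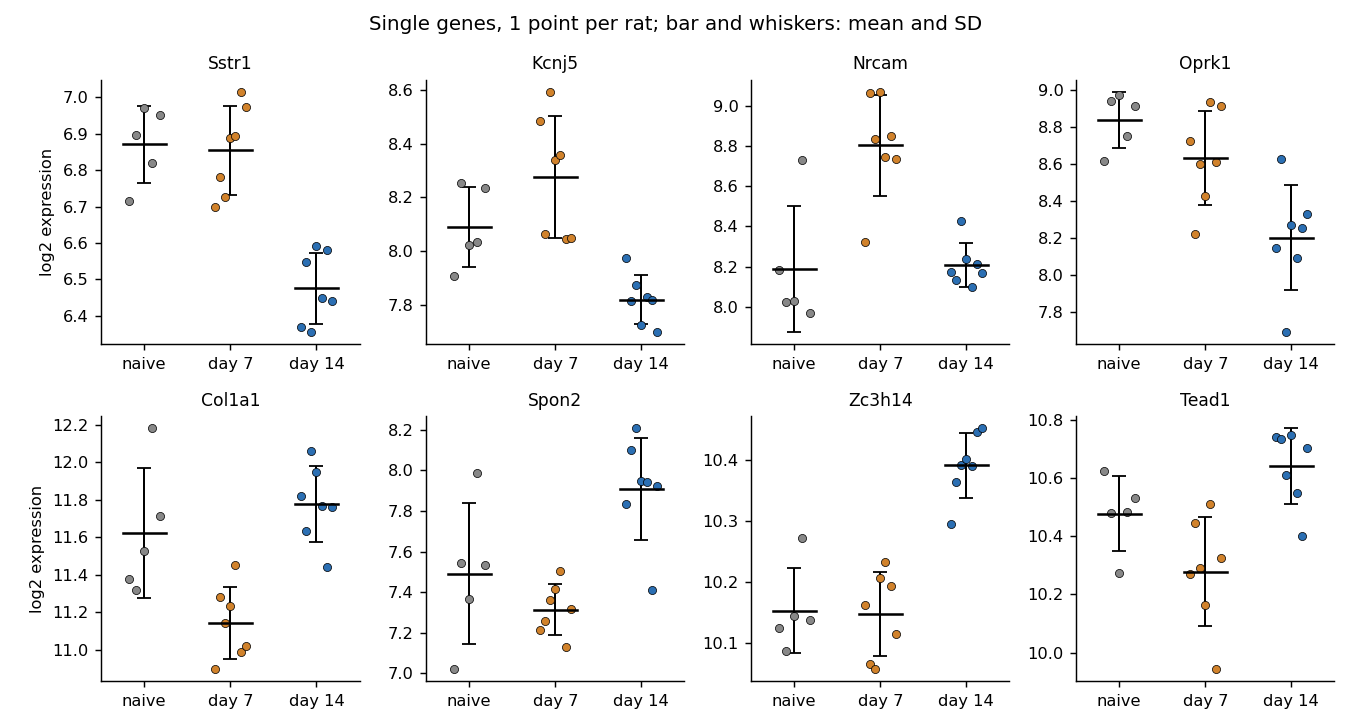
Log2 expression (vertical axis) of 8 genes in naive, day 7 and day 14 rats (horizontal axis), 1 point per array, with a horizontal bar at the mean and whiskers of 1 SD. Sstr1 and Kcnj5 separate the operated groups fully, Nrcam is highest at day 7, and Col1a1 is low at day 7 with the naive mean at 11.62.

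Transcripts of myelinating Schwann cells were higher at day 14 in 17 of 18 measured members, beside 51.9% of all genes, with a median difference of 0.25. At an unadjusted limma p under 0.05, 7 were higher and 1 was lower, against 6.11% and 4.43% of all genes. Pllp, a proteolipid of compact myelin, ranged from 8.89 to 10.29 at day 7 and from 9.59 to 10.47 at day 14. The groups overlapped, with 3 of 7 day 14 arrays above every day 7 array, and the difference was 0.57 ± 0.17. Mal, a myelin raft protein, stood at 0.47 ± 0.15, Prx, a Schwann cell scaffold protein, at 0.36, Cldn19, a tight junction claudin of myelin, at 0.34, Mbp, myelin basic protein, at 0.29 ± 0.11 and Fa2h, which hydroxylates myelin lipids, at 0.28. Pmp22, a membrane protein of compact myelin, differed by only 0.12 ± 0.04 but did not overlap, with 13.58 to 13.71 at day 7 and 13.75 to 13.82 at day 14. The tetraspanin Tspan2 went the other way, at -0.15. Other probe sets stood at -0.02 and 0.18 for Mbp and at 0.29 for Pmp22.

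The naive level placed the myelin difference at day 7. For each gene the naive mean was located along the way from the day 7 mean to the day 14 mean, and a place past 0.75 of the way counted as the day 14 side and one up to 0.25 as the day 7 side. By this description 12 of 18 myelin genes had naive rats on the day 14 side and 1 on the day 7 side, against 33.5% and 54.2% of all genes. The list's median stood at -0.25 relative to naive at day 7 and at 0.03 at day 14. The mean over the list was 9.42 to 10.10 at day 7 and 9.69 to 10.22 at day 14, so rats of both days overlapped widely. Replicate 6 was the lowest of its day on both days: without day 7 replicate 6 the higher members with an unadjusted p under 0.05 numbered 5, and without day 14 replicate 6 they numbered 11. With the prefix of the animal code in the labels as a block, that count was 1 of 18, while 17 were still higher.

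Collagens had the same arrangement. Of 31 measured collagen chains, 28 were higher at day 14, beside 51.9% of all genes, with a median difference of 0.15. At an unadjusted limma p under 0.05, 10 were higher and 1 was lower, against 6.11% and 4.43% of all genes. The fibril-forming chains Col1a1 (0.63), Col1a2 (0.34 ± 0.08) and Col3a1 (0.32 ± 0.11) led with the basement membrane chain Col4a2 (0.41 ± 0.11) and Col15a1 (0.41 ± 0.10), a collagen found between basement membrane and stroma. Col1a2 ranged from 11.51 to 11.94 at day 7 and from 11.67 to 12.27 at day 14, with a naive mean of 12.01. Col4a2 ranged from 9.31 to 9.79 and from 9.66 to 10.13, with a naive mean of 9.95, so that for both genes day 7 was the low group. Col15a1 differed in this respect: its naive mean of 9.24 lay near the day 7 arrays, which ran from 8.80 to 9.34. The further probe sets of Col1a2 (0.40) and Col15a1 (0.41) had the same direction, and Col10a1, a cartilage collagen, stood lower at -0.26. Of the 31 chains 19 had naive rats on the day 14 side, and the median stood at -0.16 relative to naive at day 7 and 0.01 at day 14.

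The noncollagenous matrix list had 38 of 43 members higher, beside 51.9% of all genes, and a median of 0.18. At an unadjusted limma p under 0.05, 15 were higher and 0 lower, against 6.11% and 4.43% of all genes. Lama2, the laminin chain of Schwann cell basement membrane, ranged from 10.87 to 11.39 at day 7 and from 11.10 to 11.65 at day 14, a difference of 0.36 ± 0.09. Beside Spon2 and Lama2 stood Spon1, or F-spondin (0.33 ± 0.11), the microfibril protein Mfap2 (0.29 ± 0.10) and Sparc, a collagen-binding glycoprotein (0.26 ± 0.10), whose further probe set stood at -0.53. Unlike the collagens, naive rats fell on the day 14 side for 19 members and on the day 7 side for 16. The count of 15 was 8 without day 7 replicate 6 and 9 without day 14 replicate 3. Genes that process or crosslink collagen showed less: 13 of 18 were higher, the median was 0.04, and only the crosslinking oxidase Lox (0.48 ± 0.15, further probe set 0.19) had an unadjusted p under 0.05. Of 30 genes of TGF-beta and Hippo signalling 22 were higher with a median of 0.09. Besides Tead1 these were led by the Hippo kinase Lats2 (0.28), the coactivator Wwtr1 (0.13) and Ltbp1, which anchors latent TGF-beta (0.21), while the ligand Tgfb3 stood at -0.22.

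**Figure D2:**
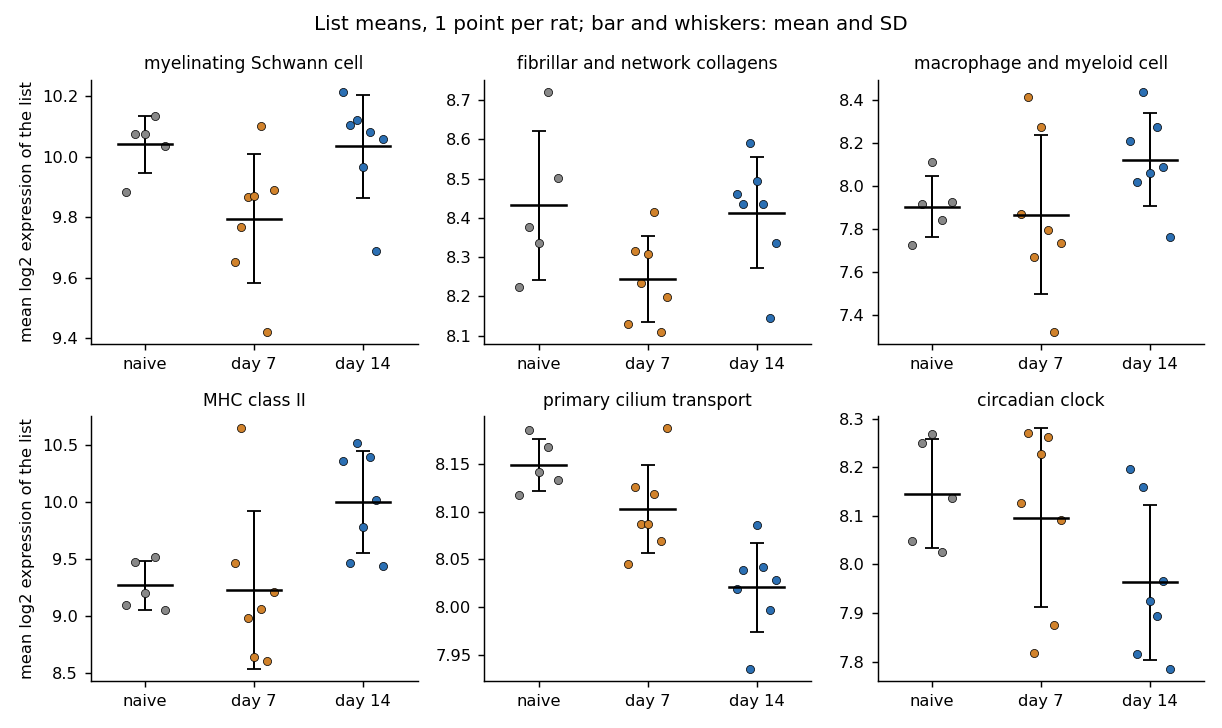
Mean log2 expression over the measured members of 6 gene lists (vertical axis) in naive, day 7 and day 14 rats (horizontal axis), 1 point per array, with a bar at the mean and whiskers of 1 SD. Myelin and collagen means are lowest at day 7, the MHC class II mean overlaps between all groups, with day 7 replicate 2 the highest array at 10.65, and 6 of 7 day 14 arrays lie below every day 7 array for the cilium list.

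Macrophage and myeloid transcripts were higher at day 14 in 32 of 34 members, beside 51.9% of all genes, with a median difference of 0.26. At an unadjusted limma p under 0.05, 9 were higher and 0 lower, against 6.11% and 4.43% of all genes. Mpeg1, a pore-forming protein of macrophages, ranged from 8.53 to 10.14 at day 7 and from 9.49 to 10.37 at day 14. The groups overlapped, and the difference was 0.64 ± 0.18 (further probe set 0.22). Cybb, the membrane subunit of the phagocyte NADPH oxidase, stood at 0.59 ± 0.21, with a further, dim probe set at 0.10. Adgre1, a surface antigen of mature macrophages, stood at 0.50 ± 0.15, Laptm5, a lysosomal protein of blood cells, at 0.49 ± 0.17 with a further probe set at 0.51, and the Fc receptor Fcgr1a at 0.29 ± 0.12. The naive mean lay on the day 7 side for 20 of 34 members, near the 54.2% of all genes. It lay on the day 14 side for 2, against 33.5% of all genes. Relative to naive the median stood at -0.01 at day 7 and at 0.18 at day 14. The count of 9 hung on single rats. Without day 7 replicate 2, the highest list mean of its day (8.41), it was 16, without day 7 replicate 6, the lowest (7.32), or day 14 replicate 5 it was 4, and without day 7 replicate 5 or day 14 replicate 3 it was 5.

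The largest differences of any list were in MHC class II, the molecules by which macrophages, dendritic cells and B cells present peptides to CD4 T cells. All 8 measured genes were higher at day 14, with a median of 0.63, and 6 of them at an unadjusted limma p under 0.05. Over all genes these shares were 51.9% and 6.11%. Class II genes share an upstream module of X and Y boxes read by an enhanceosome that recruits the coactivator Ciita. The 150 bases before the annotated start are printed for the 4 class II genes that carry the letters CTGATTGG of the Y box. They come from RefSeq on GRCr8 at chr20:4515265-4515414 (plus strand) for RT1-Da, chr20:4560163-4560312 (minus) for RT1-Db1, chr20:4576907-4577056 (plus) for RT1-Ba and chr20:4604119-4604268 (minus) for RT1-Bb. Capitals mark CTGATTGG and, where present, the core letters of the X box.
RT1-Da: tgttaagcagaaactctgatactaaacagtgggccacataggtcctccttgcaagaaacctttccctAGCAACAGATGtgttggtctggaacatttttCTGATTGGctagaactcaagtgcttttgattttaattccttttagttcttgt
RT1-Db1: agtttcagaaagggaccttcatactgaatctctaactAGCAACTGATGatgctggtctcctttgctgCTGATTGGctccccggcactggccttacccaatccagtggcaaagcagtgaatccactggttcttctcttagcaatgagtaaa
RT1-Ba: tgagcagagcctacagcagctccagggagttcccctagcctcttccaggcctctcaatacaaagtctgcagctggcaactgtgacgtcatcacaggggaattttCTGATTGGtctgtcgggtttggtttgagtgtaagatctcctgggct
RT1-Bb: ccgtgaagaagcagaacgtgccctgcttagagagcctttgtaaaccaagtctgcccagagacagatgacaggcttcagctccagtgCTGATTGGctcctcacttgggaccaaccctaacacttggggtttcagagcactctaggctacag

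Searched on both strands, CTGATTGG was found in 4 of the 6 class II genes with a promoter in the table, and in 820 of 33469 promoters (2.45%) over the same window. That form of the X box core, of 11 letters with 1 open position, was found in RT1-Da and RT1-Db1 and in 12 of 33469 promoters (0.0359%). The motifs did not overlap. A match describes letters only. RT1-Da, the alpha chain of the rat DR-like molecule, ranged from 11.38 to 12.79 at day 7 (median 11.91) and from 12.03 to 12.92 at day 14 (median 12.52), a difference of 0.58 ± 0.17 (limma adjusted p = 0.289). Its beta chain RT1-Db1 ranged from 9.85 to 12.02 and from 10.85 to 11.97, a difference of 0.70 ± 0.25 with a further probe set at 0.82. Cd74, the invariant chain that guides class II through the cell, ranged from 9.90 to 12.09 and from 10.77 to 12.13, a difference of 0.67 ± 0.24.

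The same day 7 rat was the highest of its day for each of these genes. Day 7 replicate 2 stood at 12.79 for RT1-Da, 12.02 for RT1-Db1, 12.09 for Cd74 and 8.05 for Ciita, at or near the top of all operated rats. The peptide editors RT1-DMb (0.54 ± 0.25) and RT1-DMa (0.32 ± 0.20) and Ciita (0.40 ± 0.23) had the same rat highest. On a further Ciita probe set, which differed by 0.16, that rat was the lowest of its day at 6.33. Without day 7 replicate 2 the median difference of the 8 genes was 0.83 and all 8 had an unadjusted limma p under 0.05. Naive rats were on the day 7 side for 6 of 8 members, against 54.2% of all genes. The median stood at 0.10 relative to naive at day 7 and 0.73 at day 14. The class II list mean ranked the 7 day 14 rats in the same order as the mean of the nerve injury list described below. Replicate 3 was highest of that day on both lists (10.52 and 9.38) and replicate 7 lowest (9.44 and 8.17). Day 7 replicate 2 was the highest of its day on both (10.65 and 9.33). The other day 7 rats were not all ranked alike. How far the class II difference follows the injury response of single rats was not tested.

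RT1-Ba and RT1-Bb, the chains of the DQ-like molecule, had the largest differences, 1.46 ± 0.41 and 1.48 ± 0.48, and these rest in part on 1 rat. Day 7 replicate 4 read 6.24 for RT1-Ba and 5.67 for RT1-Bb, the lowest of all operated rats, while it read 12.01 for RT1-Da. Without that rat the differences were 1.11 and 1.05. On another RT1-Ba probe set the same rat was the highest at 10.50, and that probe set differed by -1.10 ± 0.67 with operated rats spread from 6.21 to 10.50. The remaining probe sets stood at 0.22 and 0.23 for RT1-Ba and 0.34 for RT1-Bb. Class II genes are highly variable between individuals, and the part of sequence differences between these outbred rats in the readings was not tested.

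**Figure D3:**
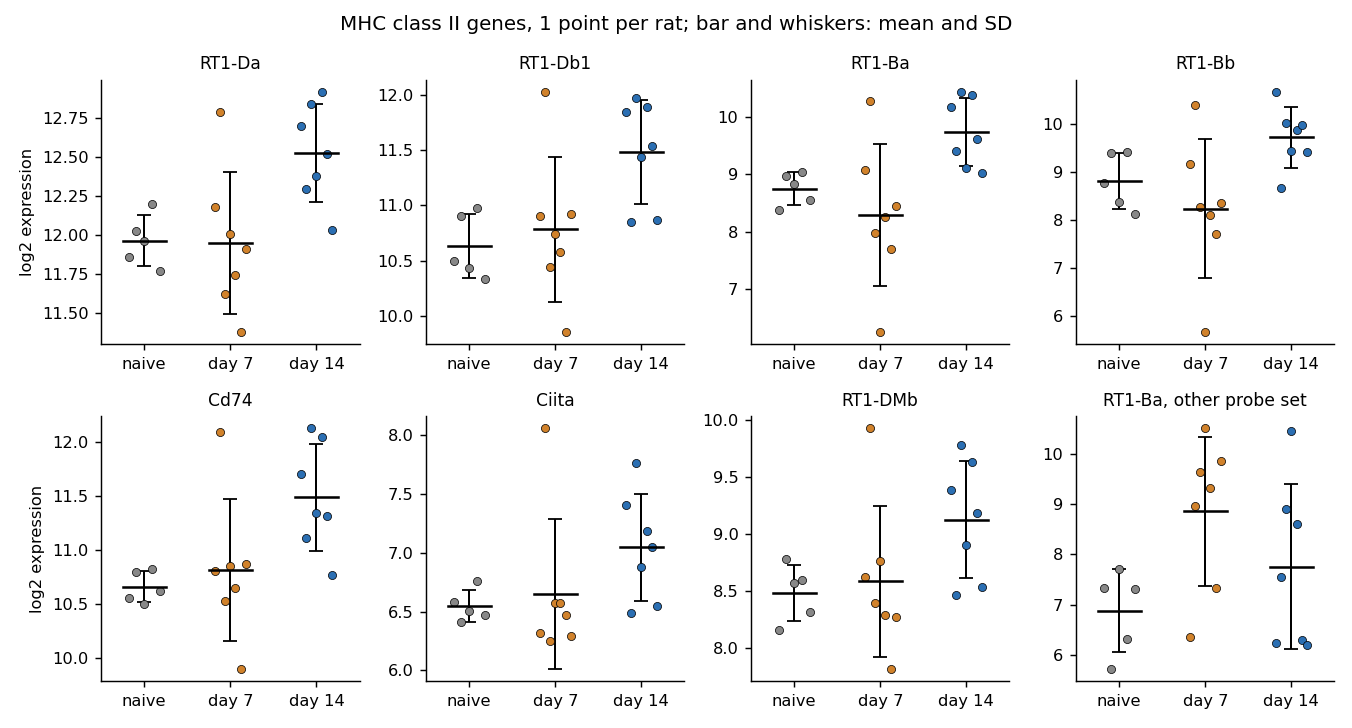
Log2 expression (vertical axis) of 7 MHC class II genes and of a second RT1-Ba probe set in naive, day 7 and day 14 rats (horizontal axis), 1 point per array, with a bar at the mean and whiskers of 1 SD. Most day 14 rats lie above most day 7 rats, the highest day 7 point is replicate 2 in the first 7 panels, and the second RT1-Ba probe set runs the other way at -1.10.

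MHC class I genes, which present peptides to CD8 T cells, did not share this direction: 12 of 21 were higher, with a median of 0.03. The nonclassical genes RT1-T24-4 (-1.04 ± 0.33) and RT1-T24-3 (-0.66 ± 0.24) were lower, and Tapbp, which loads class I peptides (0.31 ± 0.12), and RT1-CE16 (0.23 ± 0.10) were higher. These belong to a family of near-identical copies, so their probe sets may not be specific. Cytokine, chemokine and complement genes were higher in 28 of 33, beside 51.9% of all genes, with a median of 0.11. At an unadjusted limma p under 0.05, 6 were higher and 0 lower, against 6.11% and 4.43% of all genes. The 6 included the monocyte attractant Ccl7 (0.38), Cntf, a Schwann cell cytokine for neurons (0.33), and the complement protease C1s (0.26). Also among them were the interferon-gamma-induced chemokine Cxcl9 (0.34, further probe set -0.01) and Ccl19 (0.17), both dim. Without day 14 replicate 3 they numbered 3. With dim probe sets left out, 15 of 17 genes were higher, 3 of them at an unadjusted p under 0.05. Naive rats lay on the day 7 side for 20 of the 33 genes, near the 54.2% of all genes. They lay on the day 14 side for 7, against 33.5% of all genes. For Cntf, with a naive mean of 10.96, they lay at the day 14 level. Lymphocyte markers were higher in 15 of 22 (median 0.07), led by the granzyme Gzmk (0.20) and by Cd4 (0.17), both dim. Interferon-response genes were higher in 12 of 26, with a median of -0.01, and only Irf9 (-0.14), a subunit of the interferon-activated factor ISGF3, had an unadjusted p under 0.05.

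Genes of the circadian clock, the feedback loop in which Clock and Arntl drive Per and Cry repressors, were lower at day 14 in 13 of 21, with a median of -0.12. Per2, a core repressor, ranged from 7.39 to 8.41 at day 7 (median 8.02) and from 6.48 to 7.97 at day 14 (median 6.90). Of the day 14 rats 5 lay below every day 7 rat, naive rats averaged 7.98 ± 0.47 (SD, n = 5), and the difference was -0.82 ± 0.22 (limma adjusted p = 0.283). A further Per2 probe set stood at 0.08. Cry1 (-0.26 ± 0.12), Cry2 (-0.21 ± 0.08, further probe set 0.06) and Tef (-0.28 ± 0.12, further probe sets -0.13 and -0.37), a PAR-domain output factor, were also lower. Rorb, a dim orphan nuclear receptor, was higher (0.13), while its further probe set stood at -0.22. A dim probe set of Clock itself was higher without overlap at 0.21, and the one with the highest mean stood at 0.13. These made 4 lower and 1 higher at an unadjusted limma p under 0.05, against 4.43% and 6.11% of all genes. Naive rats were on the day 7 side for 15 of 21 genes, against 54.2% of all genes. The count of 4 ran from 2 without day 7 replicate 1 or day 14 replicate 2 to 7 without day 7 replicate 3, and with the code prefix as a block it was 0. The hour at which each ganglion was taken is not given in the labels, and its part in these values was not tested.

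Of 18 clock genes with a promoter in the RefSeq table, the E-box CACGTG was found within the 250 bases before the start of 4 (5.59% of all promoters) and the E-box variant CACGTT in 3, Per2 among them (4.07%). The D-box TTATGTAA, of the kind bound by PAR-domain factors such as Tef, was found in Per2 alone (0.828%). Both strands were searched, and CACGTG reads the same on each. The Per2 stretch is printed because Per2 carried the largest clock difference. It lies at chr9:99496994-99497243 of GRCr8 on the minus strand, with the D-box and the CACGTT letters in capitals.
Per2: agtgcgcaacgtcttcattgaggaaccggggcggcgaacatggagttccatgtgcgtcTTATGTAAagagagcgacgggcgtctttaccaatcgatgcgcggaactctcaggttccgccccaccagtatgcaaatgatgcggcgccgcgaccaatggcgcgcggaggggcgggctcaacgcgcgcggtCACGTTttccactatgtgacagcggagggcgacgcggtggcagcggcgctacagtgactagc

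Genes of primary cilium transport were lower at day 14 in 29 of 38, beside 6840 of 14217 over all genes, with a small median difference of -0.08. At an unadjusted limma p under 0.05, 7 were lower and 0 higher, against 4.43% and 6.11% of all genes. The primary cilium is a sensory antenna present on neurons, glia and fibroblasts, built by intraflagellar transport (IFT) and serviced by the BBSome. Ift70a1, an IFT-B subunit, ranged from 7.30 to 7.79 at day 7 and from 7.00 to 7.50 at day 14, a difference of -0.35 ± 0.07. Naive rats averaged 7.68, and 6 of 7 day 14 rats lay below every day 7 rat. Ift88 (-0.21 ± 0.07) and Ift52 (-0.14 ± 0.05), both of IFT-B, and the BBSome subunits Bbs4 (-0.34 ± 0.11, further probe set -0.37) and Bbs7 (-0.18 ± 0.07) were lower too. A further Bbs7 probe set did not differ, at -0.0002. The mean over the list was 8.05 to 8.19 at day 7, 7.94 to 8.09 at day 14 and 8.12 to 8.18 in naive rats. With any 1 operated rat left out, the members lower at an unadjusted p under 0.05 numbered between 7 and 10, with 0 higher.

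Potassium channel genes leaned the same way: 34 of 50 were lower, the median was -0.05, and 8 were lower (5 without day 7 replicate 7) and 5 higher at an unadjusted limma p under 0.05. Over all genes 4.43% were lower and 6.11% higher at that p. At the same p with dim probe sets left out, 7 of 33 channel genes were lower and 1 was higher. With the code prefix as a block, 8 of 50 were lower and 1 was higher at that p. Kcnip3, a calcium-binding partner of A-type channels also known as DREAM, ranged from 11.36 to 11.57 at day 7 and from 11.07 to 11.34 at day 14. The groups did not overlap, the naive mean was 11.33, and the difference was -0.18 ± 0.05, with a further, dim probe set at 0.13. Kcnk2, the mechanosensitive leak channel TREK-1, stood at -0.27 ± 0.08 (further probe set 0.02), and Kcnma1, the pore of the large-conductance calcium-activated channel, at -0.26 ± 0.09, although its further probe sets stood at 0.11 and -0.14. Kcnmb1, an accessory subunit of that same channel, was higher at 0.22 ± 0.06, at a dim level. Sodium channels showed little, with 9 of 16 higher and a median of 0.01. Only Scn7a, the sodium-sensing channel of glia and some neurons (0.16 ± 0.06), had an unadjusted p under 0.05. Calcium channels were higher in 13 of 19 with a median of 0.04, led by the L-type pore subunit Cacna1c (0.19 ± 0.09, further probe set 0.04).

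**Figure D4:**
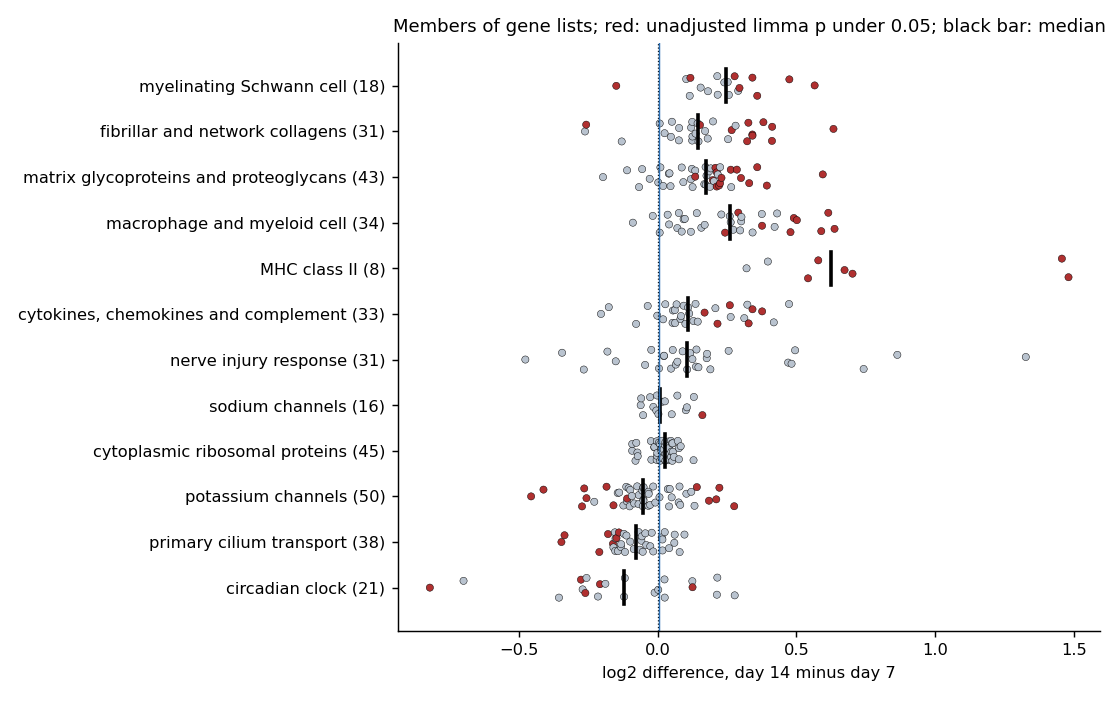
Log2 difference of day 14 minus day 7 (horizontal axis) for every measured member of 12 gene lists (rows, number of members in brackets), with members at an unadjusted limma p under 0.05 in red, list medians as black bars, and the median of all genes, 0.00, as a blue line. MHC class II is shifted furthest to the right at 0.63, and sodium channels and ribosomal proteins sit at about 0.

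Markers of sensory neuron classes had medians between -0.04 and 0.05 over all rats. Peptidergic nociceptor genes had a median of 0.01 (-0.03 after a further quantile normalization), with 8 of 15 higher. Calca, which encodes the pain peptide CGRP, differed by 0.05 ± 0.04 (further probe sets -0.07 and 0.09), and its sister gene Calcb by 0.19 ± 0.06, with 6 of 7 day 14 rats above every day 7 rat, from 12.12 to 12.45 against 12.32 to 12.61. Trpv1, the heat and capsaicin channel, stood at -0.10 ± 0.05. Nonpeptidergic nociceptor genes had a median of -0.04, with 9 of 13 lower. With the code prefix as a block this median was -0.24, and within prefix AJ it was -0.26. The natriuretic peptide Nppb stood at 0.66 ± 0.31, but its day 14 values ran from 6.77 to 9.53 around a median of 6.92, and without day 14 replicate 3 its difference was 0.31. Prkcq, a protein kinase C, was at 0.23 and Lpar3, a lysophosphatidic acid receptor, at -0.18. Large-diameter neuron genes had a median of 0.05, with Calb1, a calcium buffer, at 0.29 and Mafa, a transcription factor of mechanoreceptors, at -0.24.

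Receptors and ligands of the somatostatin, opioid, NPY and galanin systems went both ways, 15 of 22 higher with a median of 0.07. Beside Sstr1, the kappa opioid receptor gene Oprk1 was lower, from 8.22 to 8.94 at day 7 and from 7.69 to 8.63 at day 14, a difference of -0.43 ± 0.12 with a naive mean of 8.84. Its further probe sets stood at 0.05 and -0.23. The somatostatin receptor Sstr5 (0.22 ± 0.08) and the galanin receptor Galr3 (0.22 ± 0.09) were higher. Thus 2 receptors lay on each side at an unadjusted limma p under 0.05.

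Nerve injury genes overlapped widely between the days. Of 31 members 24 were higher at day 14, with a median of 0.11, but 0 had an unadjusted limma p under 0.05 in either direction. Atf3, a transcription factor switched on in axotomized neurons, ranged from 7.28 to 11.15 at day 7 and from 8.12 to 11.63 at day 14, against 8.16 ± 0.18 (SD, n = 5) in naive rats. Its difference was 0.74 ± 0.56, and it ran from 0.43 without day 14 replicate 3 to 1.09 without day 7 replicate 2. With the code prefix as a block the differences were larger, 2.01 for Atf3, 3.18 for Vip, 1.94 for Npy and 1.21 for Gal, and none passed the adjusted limma threshold. Members at an unadjusted p under 0.05 then numbered 6 higher and 1 lower, and within prefix AJ 11 higher and 1 lower. Day 14 replicate 3, the highest of its day for the list mean (9.38), was 1 of only 2 day 14 rats within AJ. The neuropeptides Npy (0.49 ± 0.71), Vip (0.86 ± 0.79) and Gal (0.48 ± 0.37) spread as widely, Npy from 6.88 to 11.76 at day 7 and from 7.39 to 12.38 at day 14. Csrp3, a muscle LIM protein induced in injured neurons, stood at 1.33 ± 0.77. Some rats of each day lay at the naive level and others far above it. The list mean of 8.12 to 9.33 at day 7 and 8.17 to 9.38 at day 14 compared with 8.06 to 8.24 in naive rats.

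Genes of axon growth differed little. Growth cone genes had a median of 0.04, with 19 of 25 higher. Marcks, an actin-regulating kinase substrate, ranged from 11.23 to 11.71 at day 7 and from 11.68 to 11.95 at day 14, with 6 of 7 day 14 rats above every day 7 rat (0.27 ± 0.07). Gpm6a, a membrane glycoprotein of growth cones, and the Nogo receptor Rtn4r each stood at 0.21, whereas Gap43 differed by 0.05 ± 0.05. Neurotrophin and GDNF family genes had a median of 0.04. Bdnf stood at 0.04 ± 0.15, with 8.30 to 9.08 at day 7 and 8.30 to 9.11 at day 14, and only the GDNF-family ligand Pspn (0.17) had an unadjusted limma p under 0.05. Among 56 axon guidance genes 35 were higher with a median of 0.03. Sema5a, a transmembrane semaphorin, led at 0.45 ± 0.10, from 9.57 to 10.15 at day 7 and from 9.84 to 10.60 at day 14, with a naive mean of 10.23. The secreted semaphorins Sema3b (0.27) and Sema3c (0.17) and the ephrin receptor Epha7 (0.14, further probe set 0.05) followed. L1, NCAM and contactin adhesion genes had a median of -0.03, and 0 of 23 had an unadjusted p under 0.05, since the list takes the brightest Nrcam probe set.

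Among other cells of the ganglion, satellite glia genes were higher at day 14 in 15 of 15, beside 51.9% of all genes, by a median of 0.11. At an unadjusted limma p under 0.05 there was 1, near the 6.11% of all genes, the BMP antagonist Sostdc1 (0.26 ± 0.11). Repair Schwann cell genes were higher in 17 of 20 with a median of 0.07, led by the transcription factors Sox2 (0.30 ± 0.13) and Sox4 (0.19 ± 0.08) and the EGF-family ligand Btc (0.16 ± 0.07). Endothelial genes had a median of -0.01, with the vascular receptor Tie1 at -0.31, and pericyte and smooth muscle genes one of 0.07. Mast cell genes (median 0.09) were dim, and the tryptases Tpsab1 (0.25) and Tpsb2 (0.21) were higher. Markers of tissue that can adhere to a dissected ganglion were measured beside these. Skeletal muscle genes were lower in 22 of 29 (median -0.23), with day 7 replicate 7 (list mean 7.90) and day 14 replicate 2 (6.96) highest of their days. Their median was 0.05 without day 7 replicate 7 and -0.05 without both of these arrays and the highest naive one, so its direction rests on single arrays. Adipocyte genes were higher in 12 of 13 (median 0.13), and red blood cell genes had a median of 0.04 and central nervous system genes one of 0.03. Without the muscle-rich array of each group, the medians were 0.21 for myelin, 0.15 for collagens, 0.26 for macrophages, 0.68 for MHC class II, -0.07 for the cilium list and -0.07 for the clock.

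Housekeeping and stress lists had medians between -0.05 and 0.05, although single members differed more. Respiratory chain genes had a median of 0.00 over 79 members. Ribosomal protein genes had a median of 0.03 over 45, with 0 at an unadjusted limma p under 0.05. Of these 45, 31 were higher, and 22 to 38 were higher with any 1 operated rat left out. Cholesterol and fatty acid synthesis genes stood at 0.00 and cell cycle genes at -0.05, where the replication helicase subunit Mcm4 was lowest in p at -0.27. Immediate early genes had a median of 0.05, with Egr3 (0.17) and the phosphatase Dusp6 (0.28) higher and the synaptic scaffold Homer1 (-0.23) lower. Further probe sets stood at 0.27 and -0.01 for Dusp6 and at -0.16, 0.06, -0.01 and -0.05 for Homer1. Nrf2 antioxidant targets were lower in 14 of 21, with a median of -0.05. Nqo1, a quinone reductase, ranged from 11.09 to 11.44 at day 7 and from 10.91 to 11.08 at day 14, without overlap, with a naive mean of 11.23 and a difference of -0.26 ± 0.06. Gsta3, a glutathione transferase, also stood at -0.26.

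Placed against naive rats, the lists differed in arrangement. Myelin and collagen genes stood below naive at day 7 and at the naive level at day 14. Macrophage, MHC class II and cytokine genes stood nearer naive at day 7, with medians of -0.01, 0.10 and 0.06. At day 14 they stood above it, with medians of 0.18, 0.73 and 0.21. Cilium and clock genes stood nearer naive at day 7 and below it at day 14, with medians of -0.06 and -0.06 at day 7 and -0.13 and -0.10 at day 14. Nerve injury genes stood above naive on both days, by a median of 0.28 at day 7 and 0.31 at day 14. These places share the same naive arrays and are a description without a test.

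**Figure D5:**
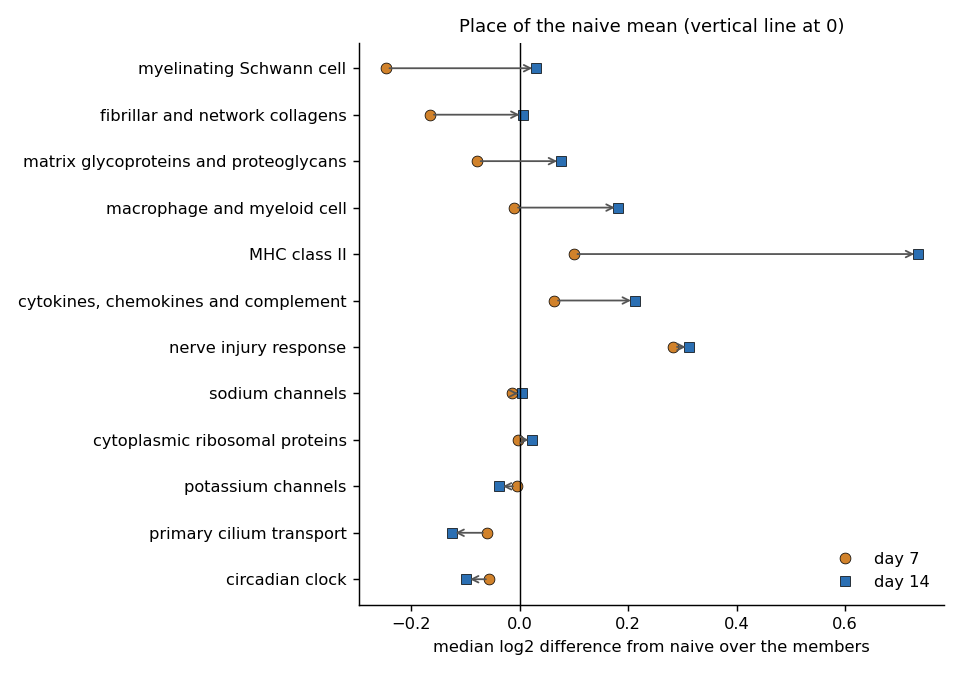
Median log2 difference from naive over the members of 12 gene lists (horizontal axis; rows are lists) at day 7 (orange circles) and day 14 (blue squares), with an arrow from day 7 to day 14 and the naive level as a line at 0. Myelin stands at -0.25 at day 7 and 0.03 at day 14, whereas MHC class II stands at 0.10 and 0.73.

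The prefixes of the rat codes in the labels were not balanced over the days. Of the day 14 rats 5 had AI and 2 had AJ, and of the day 7 rats 5 had AJ and 2 had AK, and their meaning is not stated. Within AJ, with 5 day 7 rats and 2 day 14 rats, the medians were 0.18 for myelin, 0.34 for collagens, 0.32 for other matrix, 0.37 for macrophages, 0.95 for MHC class II, -0.11 for the cilium list, -0.11 for potassium channels and -0.08 for the clock. All of these had the direction they had over all rats. Replicate 3, 1 of the 2 AJ day 14 rats, had the highest list mean of its day for collagens (8.59) and other matrix (9.69). It was also highest for macrophages (8.44) and MHC class II (10.52), and lowest for the cilium list (7.94) and potassium channels (8.08). The AJ values of these lists thus rest heavily on 1 rat. AJ also leaves out day 7 replicates 2 and 6, the highest (10.65) and lowest (8.61) of their day for MHC class II. Within AJ, members at an unadjusted limma p under 0.05 numbered 0 of 18 for myelin, 8 of 8 higher for MHC class II, 3 of 38 lower for the cilium list and 1 higher and 1 lower of 21 for the clock, and Per2 stood at -0.58. With the prefix as a block over all rats they numbered 1 higher for myelin, 7 higher for MHC class II, 5 lower for the cilium list, and 1 higher and 0 lower for the clock, where Per2 stood at -0.65.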

How the data were processed

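RNA of each T11 ganglion was amplified in 2 linear rounds and hybridised to an Affymetrix rat genome array, per the labels' protocols. The authors deposited log2 expression values per probe set, made with RMA and limma per the submitters' processing notes, with versions not given in the sources used here. RMA makes the arrays' distributions alike and so would mask a global rise or loss of RNA. Per the series design text, 1 naive array was removed by the submitters, and it was not analysed here.

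The table held 31099 probe sets, of which 57 controls were left out. Symbols were those of the platform annotation, brought up to date by RefSeq gene identifier (GRCr8): 20826 probe sets had 1 symbol, 436 several and 9780 none, and 14217 genes were named. The 3 groups were fitted together with limma 3.58.1 in R 4.3.3 (lmFit and eBayes, 16 residual and 4.20 prior degrees of freedom, tested on simulated data), with Benjamini-Hochberg adjustment over 31042 probe sets and a threshold of 0.05. The number of arrays limits the precision, and the median standard error of a difference was 0.073. Array pairs correlated between 0.987 and 0.997.

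The 40 gene lists and the comparison itself were chosen with earlier results of these data known, so lists are described by counts and medians without a test of their own. A list takes the probe set with the highest mean per gene. Genes named are the 12 higher and 12 lower of smallest p, the 6 largest per direction without overlap, up to 5 of smallest p per list (every member of lists of up to 12), and Atf3, Npy, Vip, Gal, Bdnf, Gap43 and Calca. Names beyond these, such as Prx, Cldn19, Tspan2 and Col10a1, were chosen after their values were seen. Summaries used Python 3.11.15 with pandas 2.3.3 and plots matplotlib 3.10.9. Alternatives were repeated normalization, leaving out dim probe sets or each operated array, other moderation and weights, covariates, blocks by code prefix or replicate number, and 1 probe set per gene as the unit of test.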

Additional observations from a re-analysis of the deposited data

Results flagged for a closer look

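Single rats stood apart from the other 6 of their day in 16 of 168 sets of 7 values examined by Dixon's test, where chance alone gives about 1 in 20, or 8.4. Day 7 replicate 2 was highest for Ciita at 8.05, for RT1-DMa at 9.66 and for the mean of the MHC class II list at 10.65. Day 14 replicate 3 was highest for Nrcam at 8.43 and lowest for Qpct at 7.18, for the potassium channel mean at 8.08 and for the L1, NCAM and contactin mean at 8.53. Day 7 replicate 7 was highest for the skeletal muscle mean at 7.90, for the neurotrophin and GDNF family mean at 8.71 and for the cholesterol and fatty acid synthesis mean at 11.16. The skeletal muscle mean was also high in day 14 replicate 2, at 6.96. Of the single genes, Leprot was low in day 7 replicate 1 at 9.93, Kif5a high in day 7 replicate 3 at 8.67 and Slc4a1ap high in day 7 replicate 6 at 8.54. The adipocyte mean was high in day 7 replicate 4 at 6.94, and the Nrf2 target mean was low in day 14 replicate 7 at 9.54. What set these rats apart was not tested.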

How the results depend on the processing

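Of 135 genes examined under up to 27 alternatives, the direction held for all but Bdnf and RT1-T24-4. Many of these genes were named for a small p in these same data, so a kept direction was partly given in advance. Some alternatives also cannot change a gene's difference, only its p. These were other moderation, the replicate block, the operated arrays alone, 1 probe set per gene and leaving out dim probe sets. Bdnf, at 0.04 over all rats, stood at -0.077 with the code prefix as a block, at -0.022 within prefix AJ, and between -0.031 and 0.12 with 1 rat left out. RT1-T24-4 stood at 0.057 within AJ. The count of probe sets past the adjusted limma threshold, 0 over all rats, was 1 with the prefix block and 1 within AJ, both times Myo15b (2.23 and 2.45, against 0.81), and 1 with the 3' minus 5' signal as a covariate (Col1a1, 0.64, adjusted p = 0.035). Leaving out 1 rat gave between 0 and 2: Sstr1 and Nrcam without day 7 replicate 1, Kif5a (0.55, adjusted p = 0.036) without day 7 replicate 3, and an unnamed probe set (2.04, adjusted p = 0.0061) without day 14 replicate 3. At an unadjusted p under 0.05, higher and lower probe sets numbered 579 and 849 without dim probe sets, 791 and 751 with the prefix block, 762 and 641 within AJ, and 858 and 614 with 1 probe set per gene. Renormalizing by quantiles gave 1714 and 1471. Without dim probe sets the higher ones were thus the smaller share, and with the other settings named the larger one.

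List medians that differed by more than the spread between rats did so mostly with the prefix block or within AJ, respectively: collagens 0.37 and 0.34, collagen processing 0.20 and 0.19, peptidergic genes -0.071 and -0.060, and nonpeptidergic genes -0.24 and -0.26. With the block alone the matrix list did (0.34). Within AJ alone potassium channels (-0.11), calcium channels (-0.031), central nervous system genes (0.079) and cell cycle genes (0.025) did, and central nervous system genes also without dim probe sets (-0.067). Within AJ fewer rats enter, and the cause of the other differences was not tested.

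Replicate numbers did not pair the rats: correlations of same-numbered deviations ran from -0.26 to 0.28, with 1 of 7 over 0.1, and 1 of 7 day 7 rats correlated best with its own number. With a replicate block, 0 probe sets passed, with 1674 higher and 1200 lower at an unadjusted p under 0.05.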
